A study of Mus musculus with 8 samples.

Results

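Macrophages are recognised by a small set of surface receptors, an effector protein and the transcription factors that direct myeloid cells towards them. 9 such genes were followed here, the receptors *Csf1r*, *Emr1*, *Itgam*, *Cd14* and *Fcgr1*, the pore-forming effector *Mpeg1*, and the transcription factors *Spi1*, *Cebpa* and *Cebpb*. Their members on the array were taken as every probe annotated to 1 of these symbols, which gave 13 of the 45281 probes, for 9 of the 30789 gene symbols. *Emr1*, the older symbol of *Adgre1*, had 3 probes, *Csf1r* and *Mpeg1* had 2 each and the other genes 1 each. The *Spi1* probe stands under the older symbol *Sfpi1* in the deposited annotation and was matched through its gene ID.

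The arrays were made from peritoneal macrophages of 8-week-old C57/BL6 mice that had been drawn into the cavity by thioglycollate, an irritant broth. 4 samples were incubated with acetylated LDL (Ac-LDL), a modified lipoprotein that macrophages take up in large amounts, at 120 μg/ml for 24 h, and 4 control samples were mock treated for the same time. All 8 samples therefore share the strain, the age and the elicitation. The study's methods for such cells describe a wash after plating that removed non-adherent cells, followed by culture with conditioned medium of L-929 cells, a fibroblast line that secretes the ligand of *Csf1r*. The labels number 4 biological replicates in each group, and those numbered 1 and 2 shared the first slide in both groups, those numbered 3 and 4 the second. How many mice gave each sample is not stated.

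In the mouse, *Spi1* encodes PU.1, an ETS-family factor on which macrophage development depends. It works with the C/EBP factors encoded by *Cebpa* and *Cebpb*, and the promoters of several myeloid receptor genes are known to be bound by PU.1. CSF-1 receptor signalling keeps macrophages alive, and F4/80 (*Emr1*) and CD11b (*Itgam*) are the antigens by which peritoneal macrophages are usually sorted.

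Each value below is that of probes of 50 bases on the array. The probes of 3 members that lie at the named start in their reference transcript are printed to show what was measured, namely the *Itgam* probe from base 3522, the dimmest *Emr1* probe from base 455 and the *Cebpa* probe from base 1105. The annotation, which names no genome build, places the *Itgam* probe on the plus strand of chromosome 7 from 135260845 to 135260894 and the *Cebpa* probe on the plus strand of chromosome 7 from 35905416 to 35905465, and gives the *Emr1* probe only the band 17qD.
Itgam: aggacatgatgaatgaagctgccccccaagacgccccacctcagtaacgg
Emr1: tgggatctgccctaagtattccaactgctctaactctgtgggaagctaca
Cebpa: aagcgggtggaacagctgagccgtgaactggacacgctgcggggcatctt

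The GC content of the 13 probes was between 40% and 64%, and each probe sequence occurred once on the array.

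RefSeq promoter sequences (GRCm38.p6, the 250 bases before the gene's start) were at hand for 5 of the 9 genes, *Itgam*, *Fcgr1*, *Mpeg1*, *Cebpa* and *Cebpb*. They were searched on both strands for GAGGAA, a core to which PU.1 is known to bind, and for TTGCNNAA, which C/EBP factors are known to bind. The letters GAGGAA occurred in 2 of the 5, where 23.3% of 32851 mouse promoters of the same length hold them. In *Itgam* they lay on the gene's own strand with the first base 84 bases before the start and on the opposite strand 15 bases before it, and in *Fcgr1* on the opposite strand 55 bases before it. TTGCNNAA occurred in 0 of the 5, against 9.56% of promoters, which says only that these letters are not in these windows. The upstream sequences of *Itgam*, *Fcgr1* and *Mpeg1* are given in the direction of the gene. Those of *Itgam* and *Fcgr1* hold GAGGAA or its reverse complement TTCCTC (in capitals), and that of *Mpeg1* holds neither. Whether these letters bear on the levels was not tested. The *Itgam* sequence is chr7:128062390-128062639 on the plus strand, the *Fcgr1* sequence chr3:96293970-96294219 on the minus strand and the *Mpeg1* sequence chr19:12460520-12460769 on the plus strand.
Itgam: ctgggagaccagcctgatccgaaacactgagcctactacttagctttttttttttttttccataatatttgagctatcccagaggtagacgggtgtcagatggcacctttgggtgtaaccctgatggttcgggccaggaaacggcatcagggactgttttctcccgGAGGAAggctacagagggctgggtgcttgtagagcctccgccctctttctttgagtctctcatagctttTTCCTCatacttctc
Fcgr1: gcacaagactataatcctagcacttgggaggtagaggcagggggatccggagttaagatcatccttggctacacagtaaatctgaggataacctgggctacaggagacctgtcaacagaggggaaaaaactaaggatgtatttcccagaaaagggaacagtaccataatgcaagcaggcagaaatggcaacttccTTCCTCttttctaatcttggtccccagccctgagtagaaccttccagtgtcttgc
Mpeg1: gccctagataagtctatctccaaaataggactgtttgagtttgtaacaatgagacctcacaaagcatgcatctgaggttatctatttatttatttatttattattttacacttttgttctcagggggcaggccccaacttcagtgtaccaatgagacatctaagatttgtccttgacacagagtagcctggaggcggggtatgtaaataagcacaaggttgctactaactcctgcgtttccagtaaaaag

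All 9 genes were detected on all 8 arrays. A probe counts as detected where its detection p-value, which ranks it against the negative controls of its array, is at most 0.05, and 36.8% to 38.5% of all probes passed on each array. Of the 13 member probes, 12 were detected on all 8 arrays, and the dimmer *Mpeg1* probe on 7 (detection p-value 0.0833 on control replicate 1). The deposited intensity of the brightest probe ran over the 8 arrays from 2866 to 6141 for *Mpeg1*, from 3269 to 5219 for *Cebpb*, from 982 to 3436 for *Emr1* and from 766 to 2656 for *Cd14*. It ran from 326 to 786 for *Csf1r*, from 163 to 248 for *Spi1*, from 89.0 to 202 for *Fcgr1*, from 71.7 to 167 for *Itgam* and from 80.7 to 112 for *Cebpa*. The median intensity of an undetected probe was 38.0 to 40.8 and that of a detected one 121 to 149. Each member value rested on 22 to 67 beads, with a bead standard error of 1.80% to 6.98% of the intensity. Levels of different probes cannot be set against each other, as probes differ in how brightly they hybridise. Of 28 other macrophage surface and granule genes on the array, 22 to 24 were detected on an array. *Msr1*, *Ccr2*, *Timd4* and *Emr4* were detected on 0 arrays, *Marco* on 1 and *Cd36* on 6. An undetected probe therefore does not show by itself that a cell type is absent.

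Markers of other cell types that a peritoneal lavage can hold were counted in the same way. Of 8 B cell markers on the array, 1 to 3 were detected on a control array and 1 or 2 on an Ac-LDL array, with *Igh-6*, an immunoglobulin heavy chain gene, on all 8 arrays at an intensity of up to 300.3, *Ms4a1* on 5, and *Cd79b*, *Pax5* and *Ebf1* on 0 arrays. Of 10 T and NK cell markers 0 to 3 were detected on an array, with the signalling genes *Lck* on 7 arrays (up to 77.4) and *Cd247* on 6 (up to 62.0), and *Cd3d*, *Cd3g*, *Cd4*, *Cd8a* and *Ncr1* on 0 arrays. Of 9 neutrophil markers 1 to 3 were detected, with *S100a8* on all 8 arrays and *S100a9*, *Mpo*, *Camp* and *Ngp* on 0. At most 1 of 11 eosinophil and mast cell markers, 2 of 7 dendritic cell markers and 3 of 8 endothelial and erythroid markers were detected on any array, with *Vwf* of endothelium on all 8 at up to 391.4.

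Fibroblast and mesothelial markers differed from these lists, since 10 to 12 of 12 were detected on every array. Among them the deposited intensity reached 11980 for *Dcn*, a matrix proteoglycan of fibroblasts, 3817 for *Upk3b* and 2913 for *Upk1b*, both known from mesothelium, and 1349 for *Pdgfra*. Other genes of the list were dim and not detected on every array, namely *Msln* (3 arrays, up to 58.7), *Krt19* (5 arrays, up to 56.4) and *Pdgfrb* (5 arrays, up to 62.8). The summed normalized intensity of the list was 14920 to 20540 on the control arrays and 15880 to 18060 on the Ac-LDL arrays, so the groups overlapped. On the first slide it was 17540 to 20540 and on the second 14920 to 18060, so the slides overlapped too. The sum of the 9 members was 10070 to 11110 on the first slide and 12710 to 16120 on the second. *Dcn*, the brightest gene of the list, was not called between the slides (log2 difference -0.15, limma adjusted p = 0.334). In the list 1 gene was called higher on the second slide and 2 lower. The part of fibroblasts and mesothelial cells in the results below was not tested. In bulk RNA, fewer macrophages in a sample and less RNA of a gene per macrophage cannot be told apart.

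**Figure D1:**
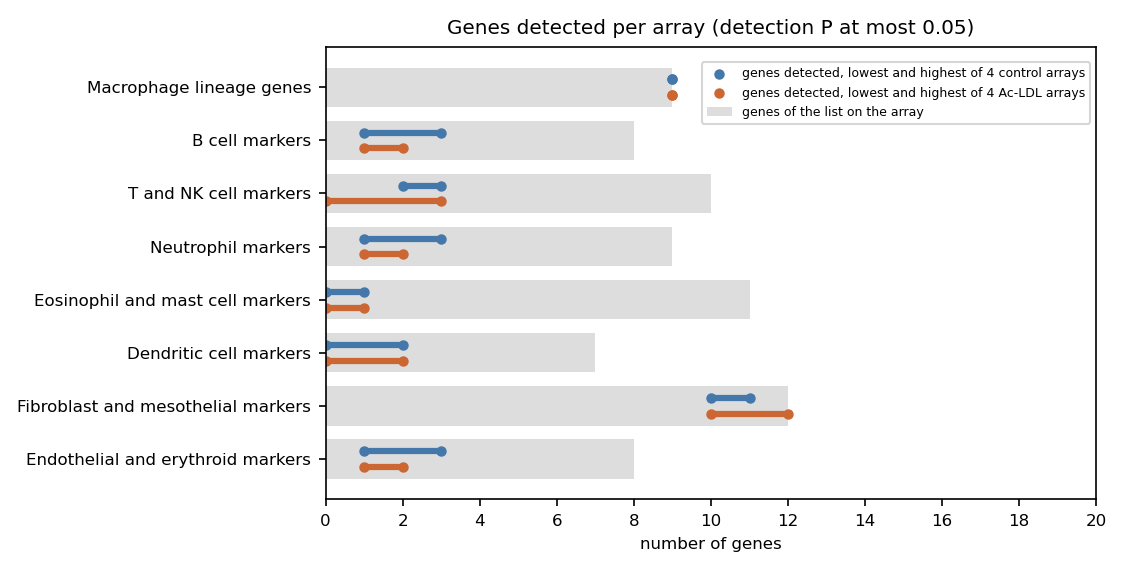
Number of genes of each marker list that were detected (detection p-value at most 0.05) on an array; grey bars give the genes of the list present on the array design, and coloured lines the lowest and highest number over the 4 control and the 4 Ac-LDL arrays. All 9 macrophage genes were detected on every array, and among the other lists only the fibroblast and mesothelial one came near its full length, with 10 to 12 of 12.

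None of the 9 genes was called between Ac-LDL-treated and control macrophages. Of all 17122 tested probes 0.0409% were called (limma, Benjamini-Hochberg adjusted p under 0.05), 7 in all, with 0.00584% higher and 0.035% lower. Blocking on the replicate number brought this to 76 probes or 0.444%, and blocking on the slide to 55 or 0.321%, and 0 of the 13 member probes was called in any of these fits. By their brightest probes, 5 members had a higher and 4 a lower mean with Ac-LDL, and their log2 fold changes lay between -0.48 and 0.61 with a median of 0.05, against a median of 0.0012 over all tested probes. The unadjusted p was under 0.05 for 1 of the 9 members, *Fcgr1*, where 5.2% of all probes passed. In either blocked fit it was under 0.05 for 3 members, *Fcgr1*, *Cd14* and *Itgam*, where 13.8% of all probes passed when blocked on the replicate number and 12.1% when blocked on the slide. The median absolute log2 fold change was 0.19 for the members and 0.0927 for all tested probes. The values that follow are normalized log2 intensities, and each array is given in the order of replicates 1 to 4. The p-values measure the spread between these samples.

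*Fcgr1* encodes CD64, the high-affinity receptor for immunoglobulin G, and had the widest difference of the members. Its levels were 5.88, 6.49, 6.90 and 7.30 on the control arrays and 6.86, 7.48, 7.33 and 7.34 on the Ac-LDL arrays. The groups overlapped, since control replicates 3 and 4 lay above the lowest Ac-LDL array. Each Ac-LDL array lay above the control of the same number, as it did for 11.5% of all probes. The means were 6.64 ± 0.61 and 7.25 ± 0.27 (SD, n = 4), a difference of 0.61 on the log2 scale (standard error 0.27, 95% interval 0.01 to 1.21), or 1.53-fold. The limma test gave p = 0.0456 before and adjusted p = 0.942 after adjustment over all probes, and the exact two-sided permutation test over the 70 assignments p = 0.114. The difference was 0.99 on the first slide and 0.23 on the second. A larger absolute difference was found for 0.596% of the tested probes.

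*Cd14*, the co-receptor that hands lipopolysaccharide to TLR4, was lower with Ac-LDL in 4 of 4 pairs of arrays with the same number, as were 10.4% of all probes. The control arrays stood at 10.01, 10.35, 10.65 and 11.19 and the Ac-LDL arrays at 9.68, 10.04, 9.95 and 10.62. The highest Ac-LDL array lay above 2 of the control arrays, so the groups overlapped. The means were 10.55 ± 0.50 and 10.07 ± 0.40 (SD, n = 4), and the log2 fold change was -0.48 (standard error 0.26, 95% interval -1.06 to 0.09, limma adjusted p = 0.960). The exact permutation test gave p = 0.171. Of all the fits, the one with the replicate block gave the lowest adjusted p, 0.0808. Within the slides the difference was -0.32 and -0.64.

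*Csf1r*, the receptor for CSF-1 and IL-34, hardly differed between the group means. Its brightest probe read 8.80, 8.40, 9.49 and 9.33 in control and 8.62, 8.57, 9.37 and 9.37 in Ac-LDL-treated macrophages. In both groups replicates 3 and 4 were higher than replicates 1 and 2. The means of 9.01 ± 0.50 and 8.98 ± 0.45 (SD, n = 4) gave a log2 fold change of -0.02 with a 95% interval of -0.63 to 0.58 (limma adjusted p = 0.998), and the sign turned in several other settings. The other *Csf1r* probe had levels of 5.95 to 6.59 in control and 5.98 to 6.76 with Ac-LDL. It was higher with Ac-LDL in 4 of 4 pairs, as were 11.5% of all probes. The difference was 0.14 on the log2 scale (standard error 0.18, limma adjusted p = 0.987).

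*Emr1* encodes F4/80, an adhesion G-protein-coupled receptor. Its brightest probe gave 9.96, 10.06, 11.43 and 11.58 on the control arrays and 10.42, 10.59, 11.12 and 11.68 on the Ac-LDL arrays, with replicates 3 and 4 again high in both groups. The means were 10.76 ± 0.86 and 10.96 ± 0.57 (SD, n = 4), and the log2 fold change was 0.20 (standard error 0.41, 95% interval -0.71 to 1.10, limma adjusted p = 0.992). It was 0.50 on the first slide and -0.10 on the second. The 3 probes of the gene had log2 fold changes of 0.20, 0.43 and 0.10. The probe from base 455, whose sequence is printed above, was higher in 4 of 4 pairs, as were 11.5% of all probes. Its limma adjusted p was 0.965, with 0.105 when blocked on the slide and 0.107 when blocked on the replicate number.

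*Itgam*, the alpha chain of the complement receptor CR3, read 5.44, 5.83, 6.87 and 6.99 in control and 6.26, 6.27, 7.06 and 6.92 in Ac-LDL-treated macrophages. Only on the first slide did both Ac-LDL arrays exceed both control arrays. The means were 6.28 ± 0.77 and 6.63 ± 0.42 (SD, n = 4), with a log2 fold change of 0.35 (standard error 0.35, 95% interval -0.42 to 1.12, limma adjusted p = 0.986). The difference was 0.63 on the first slide and 0.06 on the second.

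*Mpeg1*, which encodes perforin-2, a pore-forming protein acting on engulfed bacteria, gave 11.51, 11.61, 12.48 and 12.41 in control and 11.77, 11.83, 12.06 and 12.52 with Ac-LDL by its bright probe. The groups covered the same range, and their means were 12.00 ± 0.51 and 12.05 ± 0.34 (SD, n = 4). The log2 fold change was 0.05 (standard error 0.25, 95% interval -0.51 to 0.60, limma adjusted p = 0.996). The dim *Mpeg1* probe, close to the background and known by a predicted transcript only, had 4.62 to 5.67 in control and 5.35 to 6.06 with Ac-LDL and differed by 0.47 (standard error 0.22, adjusted p = 0.946).

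The 3 transcription factors varied least among the members. *Spi1* read 7.44, 7.57, 7.71 and 7.41 in control and 7.29, 7.47, 7.54 and 7.45 with Ac-LDL. The arrays of both groups lay within the same narrow range, and the log2 fold change was -0.09 (standard error 0.10, 95% interval -0.32 to 0.14, limma adjusted p = 0.986). *Cebpa* read 5.90, 6.01, 6.16 and 6.01 in control and 6.26, 6.13, 6.37 and 6.07 with Ac-LDL, higher in 4 of 4 pairs, as were 11.5% of all probes. The groups overlapped, and the log2 fold change was 0.19 (standard error 0.10, 95% interval -0.04 to 0.42, limma adjusted p = 0.960, exact permutation p = 0.0857).

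*Cebpb*, a factor that responds to inflammatory signals, was the only member whose groups did not overlap, as did those of 3.8% of all tested probes, with 1.68% of all lower in this way. The control arrays stood at 12.16, 12.18, 12.04 and 12.01, and all 4 Ac-LDL arrays lay below them at 11.80, 11.96, 11.96 and 11.99. The means of 12.10 ± 0.09 and 11.93 ± 0.09 (SD, n = 4) differed by a log2 fold change of -0.17 (standard error 0.09, 95% interval -0.37 to 0.03). The limma adjusted p was 0.960, and the exact two-sided permutation test gave p = 0.0286, the smallest that 4 arrays against 4 allow. The 95% intervals of the 3 transcription factors reach at most 0.42 in size on the log2 scale, whereas those of *Emr1* and *Itgam* reach 1.10 and 1.12. Blocked on the slide, the interval narrowed to -0.14 to 0.54 for *Emr1* and to 0.05 to 0.64 for *Itgam*, with adjusted p = 0.649 and 0.334 by limma.

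**Figure D2:**
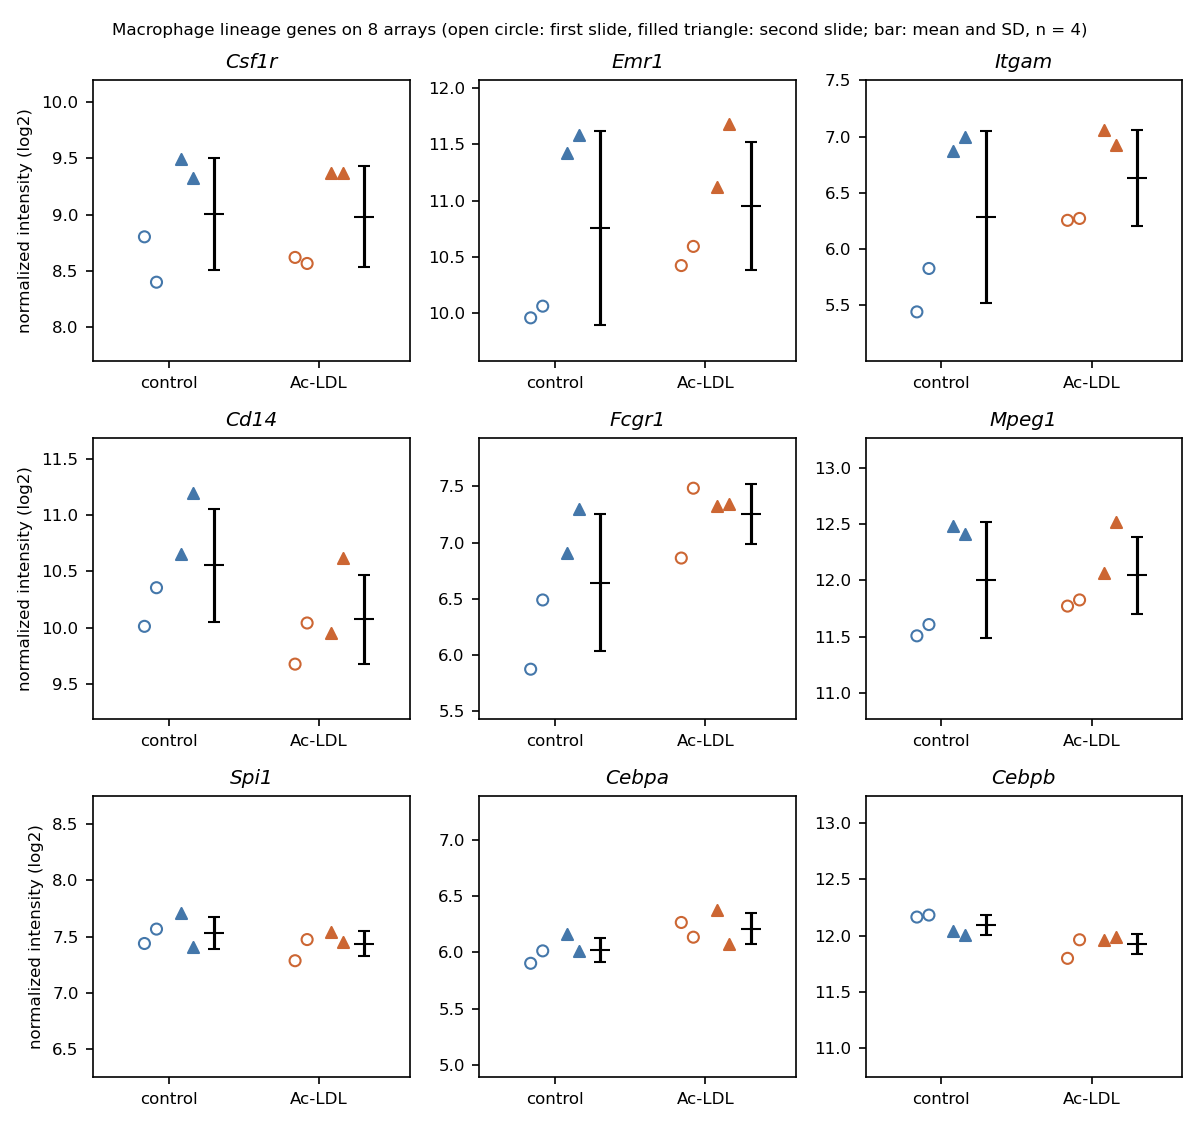
Normalized log2 intensity of the brightest probe of each gene on the 8 arrays, control and Ac-LDL; open circles are arrays of the first slide (replicates 1 and 2), filled triangles those of the second (replicates 3 and 4), and bars give the mean ± SD (n = 4). Every panel spans the same log2 range; for *Csf1r*, *Emr1*, *Itgam* and *Mpeg1* the triangles lie above the circles in both groups, and for *Spi1*, *Cebpa* and *Cebpb* they do not.

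Much of the spread within the groups went with the slide. Each slide held 2 arrays of either group, so the slides could be compared with the treatment as a term in the same model. 5 of the 9 members, *Csf1r*, *Emr1*, *Itgam*, *Cd14* and *Mpeg1*, were called higher on the second slide, where 11.7% of all tested probes were called higher and 11.9% lower. None was called lower. The median difference between the slides was 0.58 for the members and -0.02 for all tested probes. The replicates of the first slide are other biological replicates than those of the second, so hybridisation and cell preparation cannot be told apart here.

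The difference was widest for *Emr1*, at 1.19 on the log2 scale (95% interval 0.86 to 1.53, limma adjusted p = 0.00115), or 2.29-fold, and 0.345% of the tested probes differed more. It was 1.49 within the control arrays and 0.89 within the Ac-LDL arrays. The other *Emr1* probes differed by 0.92 and 1.17 (adjusted p = 0.000548 and 0.00151). *Itgam* differed by 1.01 (95% interval 0.72 to 1.30, adjusted p = 0.00127), or 2.02-fold, and by 0.72 with a larger offset in the background correction, which compresses dim probes.

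*Csf1r* was higher on the second slide by 0.79 (95% interval 0.57 to 1.01, adjusted p = 0.00114), with 0.81 within control and 0.78 within Ac-LDL, and its other probe by 0.41 (adjusted p = 0.0357). *Mpeg1* was higher by 0.69 (95% interval 0.43 to 0.96, adjusted p = 0.0038), and its dim probe differed by 0.37 (adjusted p = 0.160). For *Csf1r*, *Emr1*, *Itgam* and *Mpeg1*, all 4 arrays of the second slide lay above all 4 of the first, as did those of 10.7% of all probes. These 4 genes were called in each other setting that was tried for the slides, and with the replicate number as a random block the 5 calls were kept.

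*Cd14* and *Fcgr1* were nearer to the threshold. *Cd14* was higher by 0.58 (95% interval 0.19 to 0.98, adjusted p = 0.0387), but was not called with all probes tested (adjusted p = 0.149) or when control replicate 1, 2, 3 or 4 (adjusted p = 0.113, 0.0683, 0.0556 and 0.110) or Ac-LDL replicate 1 or 4 (adjusted p = 0.0983 and 0.105) was left out. *Fcgr1* differed by 0.54 (95% interval 0.09 to 0.99, adjusted p = 0.0799), and was called with median scaling (adjusted p = 0.00887) and without Ac-LDL replicate 2. The transcription factors had slide differences of 0.09 for *Spi1* (adjusted p = 0.537), 0.08 for *Cebpa* (adjusted p = 0.596) and -0.03 for *Cebpb* (adjusted p = 0.835).

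Whether the response to Ac-LDL differed between the slides was tested with an interaction term. It was called for 0 members and 0% of all probes by limma, and its unadjusted p was under 0.05 for 2 members, where 8.38% of all probes passed. These were *Emr1*, whose Ac-LDL difference changed from 0.50 to -0.10, an interaction of -0.60 on the log2 scale (limma adjusted p = 0.588), and *Itgam* at -0.57 (limma adjusted p = 0.546). *Fcgr1*, which was not among them, had the interaction of the largest size at -0.76 (limma adjusted p = 0.607).

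**Figure D3:**
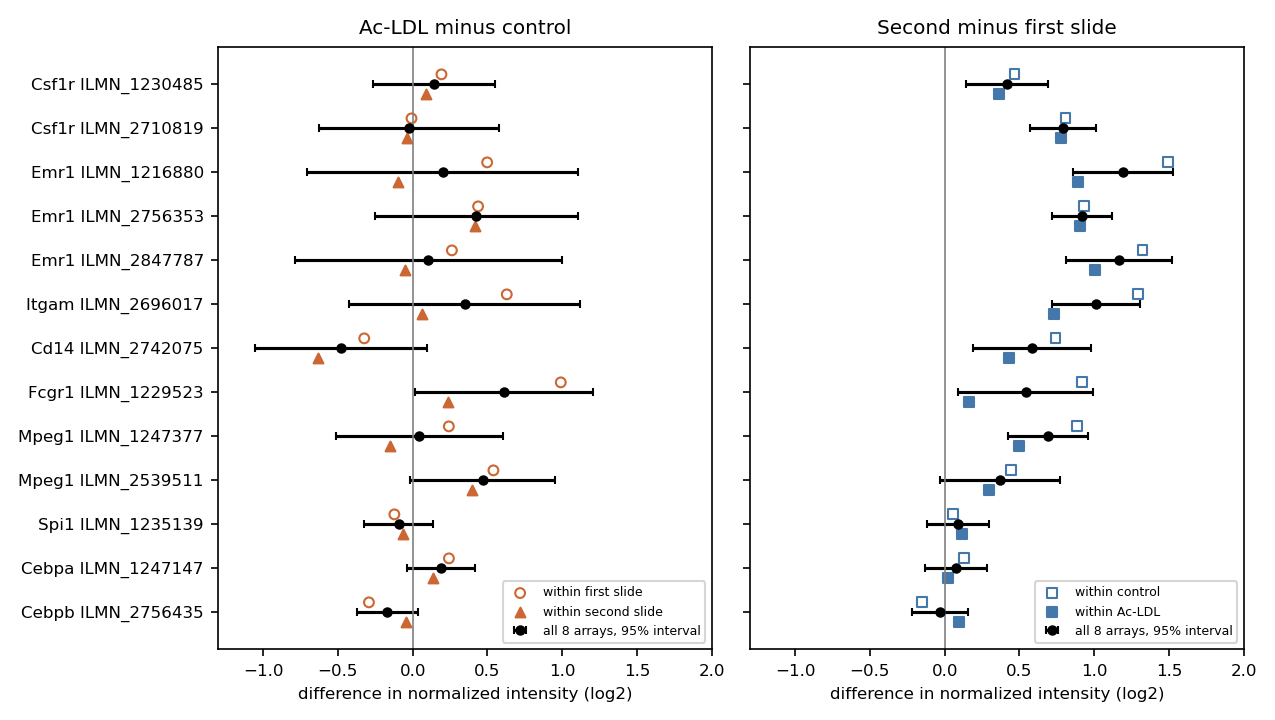
Differences in normalized log2 intensity for all 13 probes, Ac-LDL minus control on the left and the second minus the first slide on the right, with 95% intervals and, as smaller marks, the values within each slide or within each group. On the left all intervals but that of *Fcgr1* include 0; on the right those of *Csf1r*, *Emr1*, *Itgam*, *Cd14*, *Fcgr1* and the bright *Mpeg1* probe lie above 0, and those of *Spi1*, *Cebpa* and *Cebpb* include it.

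Genes known to work with the members were described in 6 lists of ligands, co-receptors, adaptors, factors and other macrophage genes. Of 80 tested genes, 53 had a higher and 27 a lower mean after Ac-LDL. Their median log2 fold change was 0.05, and 0 were called by limma. 5 of the 80 had an unadjusted p under 0.05, where 5.2% of all probes did. Blocking called 3 of the 80 by replicate number, against 0.444% of all probes, and 0 by slide. On the second slide 32 of the 80 were called higher and 2 lower, with a median difference of 0.26, where 11.7% and 11.9% of all probes were called.

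The CSF receptor list held 12 tested genes, with a median log2 fold change of 0.09 and 0 called. *Csf1*, the ligand of *Csf1r*, had the lowest value, with 8.71 ± 0.25 in control and 8.29 ± 0.23 with Ac-LDL (SD, n = 4). Its log2 fold change was -0.41 (standard error 0.15, limma adjusted p = 0.854), and it was lower in 4 of 4 pairs, as were 10.4% of all probes. *Dok2*, an adaptor of myeloid receptor signalling, had the highest at 0.40 (adjusted p = 0.964) and was 0.84 higher on the second slide (adjusted p = 0.000852). The list had 3 genes called higher and 0 lower on the second slide.

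Of 11 partners of CD14, 0 were called between the slides, where their median difference was -0.03, and 0 with Ac-LDL. With Ac-LDL their median log2 fold change was 0.00019. *Tlr4*, the signalling receptor, had a log2 fold change of 0.10 and *Ly96*, which encodes its partner MD-2, one of -0.11 (adjusted p = 0.987 and 0.986). The extremes were *Lbp*, the carrier of lipopolysaccharide, at 0.30 (adjusted p = 0.964) and *Tlr2* at -0.29 (adjusted p = 0.946).

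Of the Fc gamma receptor list, 5 of 6 tested genes had a higher mean with Ac-LDL (median 0.14, 0 called), and 4 of 6 were called higher on the second slide. *Fcer1g*, the signalling chain that *Fcgr1* needs at the surface, had a log2 fold change of 0.14 (adjusted p = 0.989) and a slide difference of 0.52 (adjusted p = 0.00423). *Fcgr4*, a further activating receptor, had the highest change at 0.68 (standard error 0.42, adjusted p = 0.961), with a slide difference of 1.23 (adjusted p = 0.00115). *Syk*, the kinase downstream, was at -0.03 (adjusted p = 0.997).

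The beta2 integrin list had 8 tested genes with a median log2 fold change of 0.05 and 0 called. *Itgb2*, the beta chain with which *Itgam* pairs, had a log2 fold change of -0.06 (adjusted p = 0.995) and was 0.77 higher on the second slide (adjusted p = 0.000596). *Fermt3*, which encodes the integrin activator kindlin-3, was at 0.34 (adjusted p = 0.949) and *Icam1*, a ligand of these integrins, at -0.08 (adjusted p = 0.990). On the second slide 5 of the 8 were called higher and 0 lower.

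Of 20 further myeloid transcription factors, 11 had a higher and 9 a lower mean with Ac-LDL (median 0.02, 0 called). *Irf8*, a partner of PU.1, had a log2 fold change of 0.15 (adjusted p = 0.986), and *Cebpd*, a relative of *Cebpb*, one of -0.02 (adjusted p = 0.997). The extremes were *Fli1*, an ETS factor, at 0.40 (standard error 0.22, adjusted p = 0.960) and the stress-induced C/EBP factor *Ddit3* at -0.72 (standard error 0.71, adjusted p = 0.984), whose slide difference was -2.04 (adjusted p = 0.00169). *Klf4*, which was chosen after its values were seen, did not overlap between the groups, with 6.55 ± 0.16 in control and 6.06 ± 0.12 with Ac-LDL (SD, n = 4). Its log2 fold change was -0.50 (standard error 0.11, limma adjusted p = 0.294, exact permutation p = 0.0286). The groups did not overlap for 2 of the 80 genes of the 6 lists and for 3.8% of all tested probes, with 1.68% of all lower in this way. On the second slide 6 of the 20 factors were called higher and 1 lower.

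Among these 6 lists, that of macrophage surface and granule genes had the highest medians, 0.21 with Ac-LDL (17 of 23 higher, 0 called) and 0.87 between the slides (14 called higher, 1 lower). Its bright genes, named after their values were seen, went different ways between the slides. *Cd68*, *Lyz2*, *Lgals3*, *Trem2* and *Gpnmb* differed by 0.06, 0.14, 0.07, 0.09 and 0.09 and were not called. *C1qb*, *Lyzs* and *Sirpa* were called higher, by 0.97, 0.61 and 0.37, and *Axl* lower, by -0.40 (limma adjusted p = 0.00651). *Vsig4*, a complement receptor of resident macrophages, had the largest rise in mean at 0.72 (standard error 0.45, adjusted p = 0.961), and the chemokine receptor gene *Cx3cr1* the largest fall at -0.75 (standard error 0.42, adjusted p = 0.961). Blocked on the replicate number, *Vsig4*, the lipid carrier *Apoe* (0.60) and the receptor for dying cells *Mertk* (0.56) were called (adjusted p = 0.0221, 0.0261 and 0.0364), *Apoe* and *Mertk* being named after their values were seen.

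Of the fibroblast and mesothelial markers, 11 were tested, 5 with a higher and 6 with a lower mean after Ac-LDL (median -0.04, 0 called). The extremes were the matrix genes *Lum* at 0.34 (standard error 0.39, adjusted p = 0.986) and *Col1a2* at -0.23 (standard error 0.09, adjusted p = 0.887). On the second slide 1 was called higher and 2 lower, with a median of -0.15 and a slide difference of -0.99 for *Lum* (adjusted p = 0.0121).

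**Figure D4:**
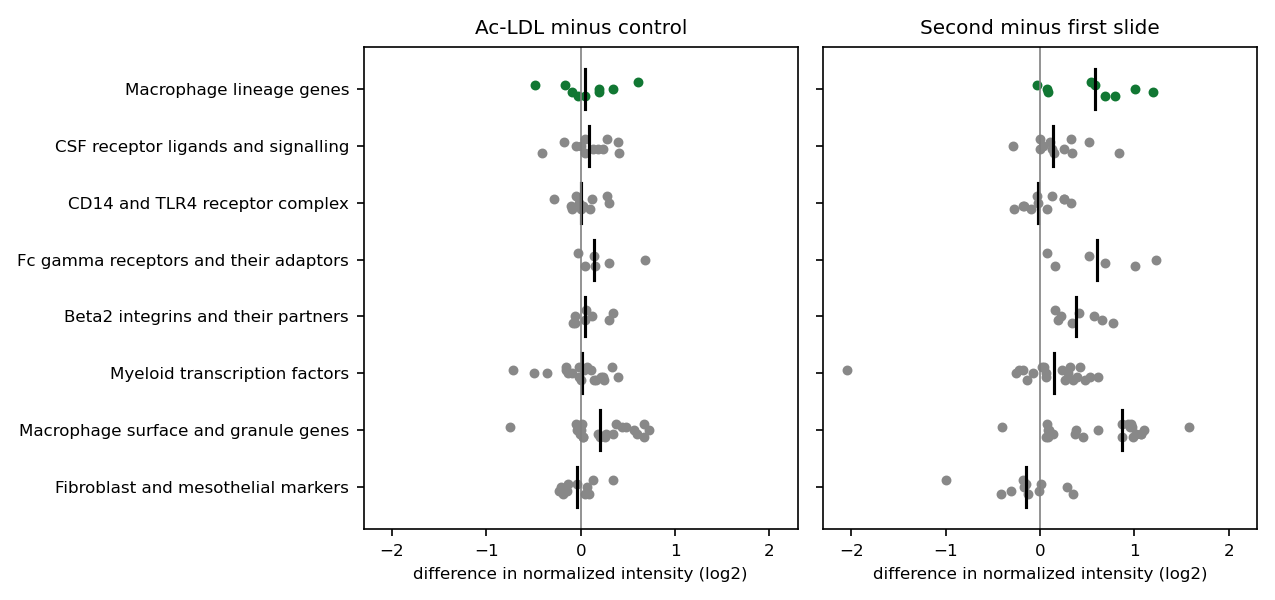
Log2 differences by gene list, Ac-LDL minus control and the second minus the first slide; each dot is the brightest tested probe of a gene, the members are in green and the black line is the median of the list. Between the groups the medians of the members and the 6 partner lists lie between 0.00019 and 0.21, and between the slides they reach 0.87 for the macrophage surface and granule genes and lie at -0.15 for the fibroblast and mesothelial markers.

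*Emr1* had the widest spread of the members over the 8 arrays (SD 0.686). The tested probes of other genes whose centred profiles came nearest to it were those of *Ptpn18*, a tyrosine phosphatase, *Cd52*, a small surface glycoprotein, and *Alox5ap*, which the leukotriene pathway needs. Their root mean square differences from the *Emr1* profile were 0.101, 0.132 and 0.140 log2 units over 8 arrays, and their slide differences were 1.09, 1.13 and 0.98. The 8 arrays share the 2 slides, so this likeness is a description.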

How the data were processed

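RNA of 4 control and 4 Ac-LDL samples was hybridised to Illumina Mouse WG-6 v2 bead chips. The authors deposited, from BeadStudio, a mean bead intensity per probe on the linear scale, neither background-corrected nor normalized, with its bead standard error as an intensity, a detection p-value from each array's negative controls, and a number of beads, which the authors gave as a further column. 0 per-sample columns were not used, and the authors' own normalized values were not used here. The file names no genome build.

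Intensities were corrected with the normexp model (limma 3.58.1 in R 4.3.3, neqc, offset 16, negative controls inferred from the detection p-values), quantile normalized and log2 transformed. Probes detected (detection p-value at most 0.05) on at least 4 of 8 arrays were tested, 17122 of 45281, among them all 13 member probes. Groups were compared without a block by limma's lmFit and eBayes, with Benjamini-Hochberg adjustment over all tested probes and calls under 0.05. Each gene is given by its brightest tested probe. Slides were compared with the group as a term, and the interaction in a further fit. Exact permutation tests used all 70 assignments. With 4 arrays per group, the number of arrays limits the precision.

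From the labels' replicate numbers, the deviations of same-numbered arrays correlated across probes at 0.579, 0.479, 0.468 and 0.629. Arrays of different numbers on 1 slide had 0.188 to 0.447. In the slide comparison with the replicate number as a random block, the consensus correlation within a number was 0.062. Same-numbered arrays share a slide, so these values do not establish that the numbers pair the samples. Correlations between arrays were 0.978 to 0.995, and 0 pairs were identical.

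Named genes were all members, the called gene, the largest rise and the largest fall of each list and direct partners of members, and the 3 probes most like the most variable member. Of those partners *Il34* was not on the array under that name. The members, the lists and the tests were chosen with earlier results of these data known. The procedure was tested on simulated data. The alternatives were another offset, no background correction, median scaling, other filters, slide and replicate blocks, the methods' t-test, a trended prior, array weights, other uses of a gene's probes, and leaving out each array. For the slide comparison, a random block for the replicate number was chosen after seeing the data.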

Additional observations from a re-analysis of the deposited data

Results flagged for a closer look

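*Cebpb* on Ac-LDL replicate 1, at 11.80 on the log2 scale, was set off below the other 3 Ac-LDL arrays at 11.96 to 11.99. The gap to the nearest of them was 0.85 of the whole range of the group, above the 95% critical value for 4 arrays. For the member probes 26 groups of 4 arrays were examined and 1 gap of this kind was found, and about 1.3 are found by chance.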

How the results depend on the processing

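The count of member genes called between Ac-LDL and control was 0 in every setting tried, with any probe of a gene counted and with the slide or replicate block too. For the members' log2 fold changes, 160 of 174 alternative values kept their direction and 14 reversed, and none crossed the threshold. *Csf1r* turned to 0.058 as the mean over its probes, and to 0.14, 0.083, 0.096 and 0.11 without control replicate 3 or 4 or Ac-LDL replicate 1 or 2, in a range of -0.23 to 0.14 with single arrays left out. *Emr1* turned to -0.077 with array weights, and to -0.067, -0.032 and -0.044 without control replicate 1 or 2 or Ac-LDL replicate 4, in a range of -0.067 to 0.47. *Mpeg1* turned to -0.060 with median scaling, which moved the median of all tested probes to -0.0911, and to -0.12 with array weights, and to -0.12, -0.086 and -0.11 without the same 3 arrays, in a range of -0.12 to 0.21. The cause was not tested. The other members kept their sign, with ranges of 0.07 to 0.58 for *Itgam*, -0.66 to -0.27 for *Cd14*, 0.36 to 0.83 for *Fcgr1*, -0.20 to -0.03 for *Spi1*, 0.10 to 0.24 for *Cebpa* and -0.29 to -0.13 for *Cebpb*. The lowest adjusted p over these settings was 0.0808 for *Cd14*, 0.156 for *Fcgr1* and 0.314 for *Itgam*.

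Over all tested probes, the 7 calls (1 higher, 6 lower) became 76 with the replicate block, 55 with the slide block, 26 with median scaling (1 higher, 25 lower), 16 with array weights, 15 with a trended prior and 14 without background correction. They became 0 without the filter on dim probes (limma, 2290 at an unadjusted p under 0.05) and 0 with the methods' t-test (1039 unadjusted), and 0 to 15 when single arrays were left out. With a normexp offset of 50 they were 0 higher and 5 lower. The members called between slides numbered 4 to 6 in all settings, and 5 with the replicate number as a random block, and 0 interactions were called.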
